A study of Mus musculus with 9 samples.

Results

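The genes described here encode the giant protein titin and the proteins that hold the thick filaments and Z-discs of heart muscle in register: Ttn, Myom1, Myom2, Myom3, Mybpc3, Mylk3, Actn2, Ldb3 and Nebl. They were taken as every probe set whose symbol in the platform's probe table was exactly one of these names, which gave 21 probe sets of 9 genes, out of 45037 probe sets and 18193 genes in all. A probe set is a group of short oligonucleotides on the array that together read a stretch of a transcript. Ttn had 6 probe sets, Myom2 had 4, Ldb3 and Nebl had 3 each, and the other 5 genes had 1 each.

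Right ventricular myocardium of male C57BL6J mice, 6 to 8 weeks old, was measured on one-colour Affymetrix arrays. The pulmonary banding group had 5 arrays and the sham operated group had 4. A pulmonary band narrows the outflow of the right ventricle and raises the pressure it works against, whereas sham mice are operated on without that narrowing. All mice carried the same wild-type background, with no transgene or deletion named, and how long after surgery the tissue was taken is not stated in the labels. The series' design text speaks of 5 mice, without saying whether per group, and 4 sham arrays were analysed here. Nothing in the labels says that each array is a separate animal, so the p-values measure the spread between these arrays.

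The sarcomere is the contractile unit of striated muscle. Titin runs from the Z-disc, where thin filaments are anchored, to the M-band, where thick filaments are cross-linked, and acts as a spring and a scaffold. Myomesins bind titin and myosin at the M-band, myosin-binding protein C sits on the thick filament and tunes cross-bridge cycling, and alpha-actinin, cypher (the product of Ldb3) and nebulette (the product of Nebl) build the Z-disc. In the heart, changes in titin splicing and in these scaffold proteins are known to accompany mechanical load, and mutations in several of them cause cardiomyopathy.

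Banding was compared with sham to ask which of these transcripts differ in the overloaded ventricle. Values are log2 expression, and each difference is banding minus sham in log2 units with its standard error from limma, a linear model that shares variance across genes. A gene or probe set was called when its p-value, adjusted by Benjamini-Hochberg over all genes or all probe sets, was under 0.05. Taking each gene by its brightest probe set, 1 member was higher (Mybpc3), 2 were lower (Nebl and Mylk3) and 6 did not pass. Of all 18193 genes, 38.4% passed, 18.4% upwards and 20.0% downwards, so 3 of 9 is no larger a share than that of the table. The members' median difference was 0.0016, beside 0 over all genes and -0.015 over the 11013 genes above the dim level in some group. A group is called dim where its mean lies under 4.198, set 2 log2 units over 2.198, the lowest value of the table, at which the lowest values pile up. Counted by probe set, 1 of the 21 was higher, 8 were lower and 12 did not pass, beside 25.9% called over all 45037 probe sets (12.8% upwards and 13.2% downwards). The 9 genes had non-overlapping groups in 3 cases, beside 36.7% of all genes. Setting aside Myom3, which was dim in both groups, 3 of 8 genes were called, beside 62.0% of all genes above the dim level. Of the 12, 3 were dim in both groups, namely 1 each of Ttn, Myom2 and Myom3. The 2 groups did not overlap in 9 of the 21 probe sets, beside 26.2% over all probe sets. Of the 18 above the dim level 9 were called, beside 53.7% of all such probe sets.

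**Figure D1:**
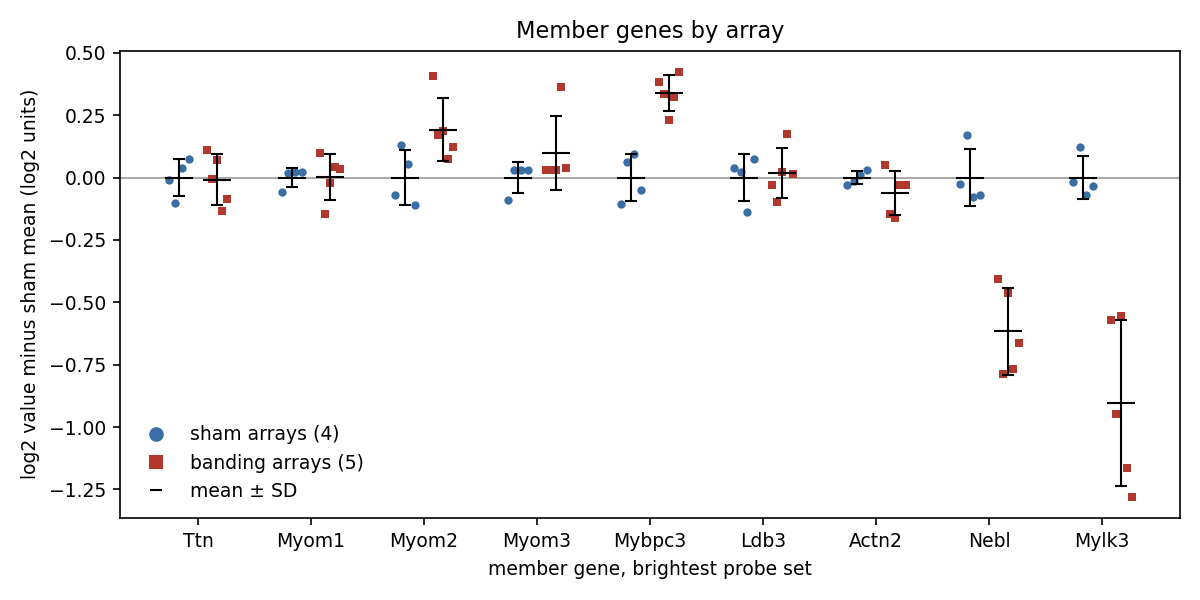
Log2 value on each array less the sham mean (y axis, log2 units) for the brightest probe set of each member gene (x axis), with sham arrays as blue circles, banding arrays as red squares and black bars for the mean ± SD. Mybpc3 lies above all sham arrays and Nebl and Mylk3 lie below all sham arrays, while the other 6 genes overlap.

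Several things moved with the groups on these arrays, and their part in the results below was not tested. The mean of 12 cardiomyocyte markers, all above the dim level, ran from 14.78 to 15.02 in banding and from 15.12 to 15.16 in sham, with 7 markers lower, 1 higher and 4 not past the threshold. Markers of fibroblasts (8 of 8), macrophages (7 of 8), endothelium (5 of 7) and smooth muscle (3 of 6) were higher in banding, and their means did not overlap between the groups. The smooth muscle mean ran from 8.04 to 8.62 in banding and from 6.93 to 7.59 in sham. In whole tissue, fewer cardiomyocytes and less RNA per cardiomyocyte cannot be told apart. A larger excess of 3' over 5' control probes goes with less intact RNA. For Actb this excess was 0.83 to 0.89 log2 units in banding and 0.98 to 1.16 in sham (exact permutation p = 0.00794, adjusted p = 0.0146). For Gapdh the same difference overlapped between the groups (-0.16 to -0.13 in banding and -0.18 to 0.023 in sham, exact permutation p = 0.262). Liver transcripts were present in the sham arrays, where the mean of 9 liver markers ran from 9.50 to 13.54 against 2.92 to 5.29 in banding, and sham replicate 4 held the most. That array also stood apart in 11 skeletal muscle markers (5.89, against 3.06 to 3.40 on the other sham arrays and 2.80 to 3.18 in banding), 6 of which were dim in both groups. The mean of 6 atrial markers varied within both groups, from 8.90 to 11.24 in banding and from 7.43 to 9.48 in sham.

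The titin probe sets did not tell the same story. The brightest, 1427445_a_at, showed no difference past the threshold, 3 others fell, and another did not pass. On 1427445_a_at the banding arrays read 15.00, 14.88, 14.96, 14.76 and 14.80 and the sham arrays 14.88, 14.79, 14.93 and 14.96. The groups overlapped fully, with a difference of -0.0088 ± 0.060 (95% interval -0.15 to 0.13; limma adjusted p = 1 over all probe sets). The largest fall was at 1431928_at, which read 8.84, 8.28, 8.50, 8.23 and 8.37 in banding and 9.76, 9.72, 9.75 and 9.73 in sham. Every banding array lay below the narrow band of the sham arrays there, and the probe set fell 2.46-fold (log2 -1.30 ± 0.12, limma adjusted p = 0.000261).

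At 1427446_s_at the values were 13.97, 13.90, 13.92, 13.68 and 13.75 in banding and 14.17, 14.12, 14.25 and 14.23 in sham. The groups were again apart, and the fall was 1.27-fold (log2 -0.35 ± 0.066, limma adjusted p = 0.00636). Centred on the cardiomyocyte markers, which adds 0.27 to every difference, it was -0.079 and did not pass (adjusted p = 0.189, range 0.0034 to 0.189). Both this probe set and the brightest are listed under the same accession in the probe table. At 1444638_at banding ran from 9.32 to 10.14 and sham from 10.35 to 10.78, a 1.72-fold fall (log2 -0.78 ± 0.19, limma adjusted p = 0.0197). That call was lost without banding replicate 4 (log2 -0.73, adjusted p = 0.05003), sham replicate 1 (-0.69, 0.0575) or sham replicate 3 (-0.77, 0.05225), and over all alternatives its adjusted p spanned 0.00407 to 0.0576. Of the other probe sets, 1444083_at averaged 11.16 ± 0.18 (SD, n = 5) under banding and 11.14 ± 0.24 (SD, n = 4) under sham surgery, a difference of 0.022 with an interval from -0.30 to 0.35 that leaves room for either direction. The sixth, 1446450_at, was dim on all arrays, between 2.24 and 2.52, so nothing can be read from it.

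A comparison of each probe set with the brightest of its own gene, array by array, was added after these values were seen. It used exact permutation over the 126 splits of the arrays, two-sided, with p-values adjusted over the 10 pairs of probe sets in Ttn, Myom2, Ldb3 and Nebl that lay above the dim level. Relative to 1427445_a_at, the difference was -0.34 at 1427446_s_at, -0.77 at 1444638_at and -1.29 at 1431928_at (exact permutation p = 0.00794 for each, which no split of 5 and 4 arrays can go below, adjusted p = 0.0159). It was 0.031 at 1444083_at (exact permutation p = 0.786, adjusted p = 0.786). Titin's gene-level value therefore depends on the probe set: it was -0.0088 from the brightest and -0.41 from the mean of all 6 (limma adjusted p = 0.00534), within a range of adjusted p from 0.00264 to 1 over the alternatives. The low end of that range is no fall: it came from centring on the cardiomyocyte markers, where the difference was 0.26. The probe table gives no position of a probe set along the transcript, so these readings cannot be assigned to a titin isoform here.

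**Figure D2:**
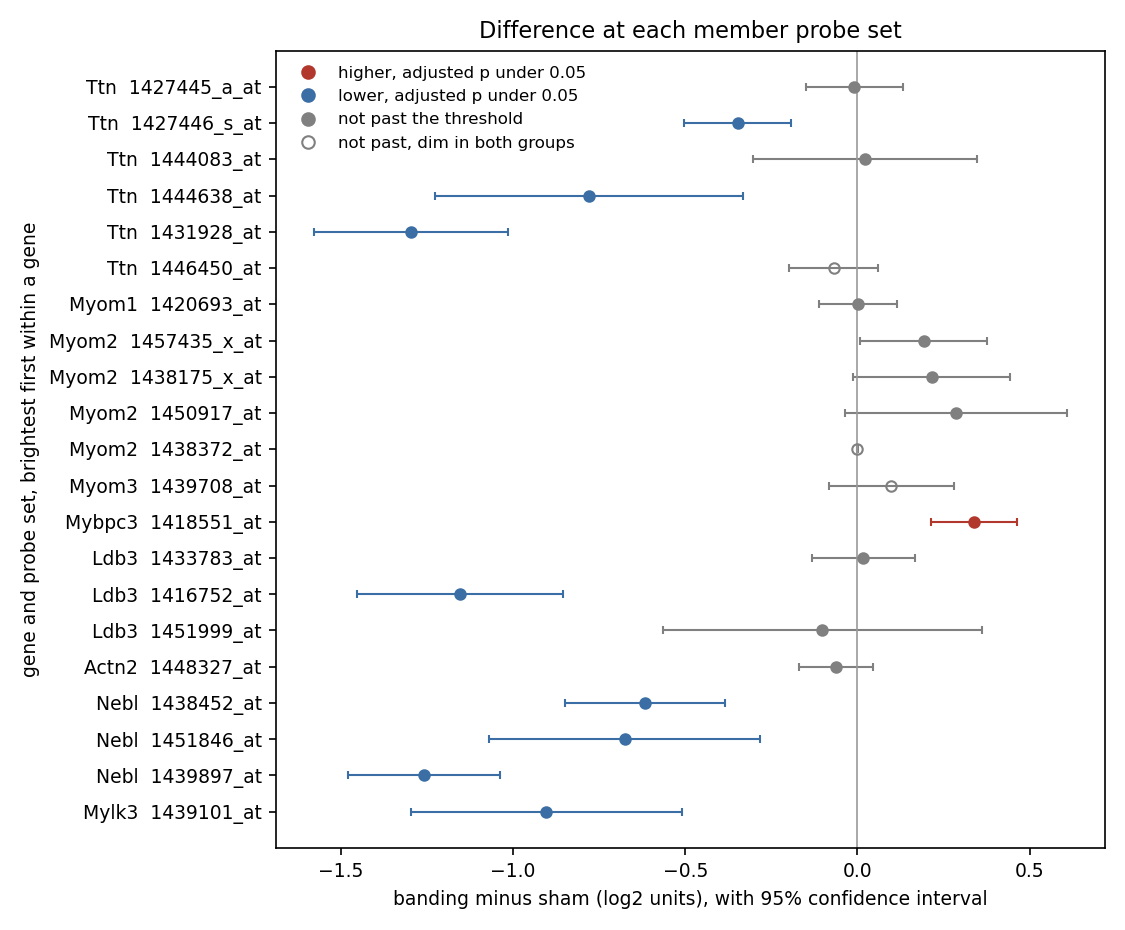
Banding minus sham (x axis, log2 units) with 95% confidence intervals for all 21 member probe sets, ordered by gene and by brightness within a gene (y axis); red marks called higher, blue called lower, grey not past the threshold, and open points dim in both groups. Ttn and Ldb3 each hold probe sets near 0 beside one lower by 1.30 and 1.15, and the 3 Nebl probe sets are all lower.

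At the M-band, no myomesin passed the threshold. Myom1, which encodes the main myomesin of striated muscle, read 13.66, 13.41, 13.54, 13.60 and 13.59 in banding and 13.50, 13.58, 13.58 and 13.58 in sham. The groups overlapped, the difference was 0.0016 ± 0.049 (limma adjusted p = 1), and the 95% interval of -0.11 to 0.12 limits any difference to a small one either way. Myom2, which encodes M-protein, a myomesin of fast fibres and adult heart, read 14.49, 14.26, 14.27, 14.16 and 14.21 in banding and 14.01, 14.21, 14.14 and 13.98 in sham on its brightest probe set. The banding values were the higher on average, with sham replicate 2 inside their range. The difference of 0.19 ± 0.079 did not pass (limma adjusted p = 0.0984, 0.0478 with quantile normalization and 0.0692 to 0.226 with single arrays left out).

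The other Myom2 probe sets above the floor gave 0.22 ± 0.097 and 0.29 ± 0.14, so all 3 had the same sign and none passed (limma adjusted p = 0.135 to 0.210 over all probe sets). The fourth, 1438372_at, sat at the floor of 2.198 on every array. Myom3, the myomesin of intermediate-speed fibres, was dim in both groups, with 3.61 ± 0.15 (SD, n = 5) after banding and 3.52 ± 0.061 (SD, n = 4) after sham surgery, and no fold is given. Between Myom1 and Myom2 the change was not shown to be unequal (-0.19, exact permutation p = 0.0714, adjusted p = 0.107 over 6 pairs of members), nor between Myom1 and Myom3 (-0.097, p = 0.317, adjusted p = 0.317).

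On the thick filament, Mybpc3 rose and Mylk3 fell. Mybpc3, which encodes cardiac myosin-binding protein C, read 14.12, 14.08, 13.97, 14.07 and 14.17 in banding and 13.64, 13.80, 13.84 and 13.69 in sham. Every banding array lay above every sham array, though the step was small next to many in the table. The rise was 1.26-fold (log2 0.34 ± 0.054, limma adjusted p = 0.00172 over all genes). Mybpc3 was the only member called higher under the main settings.

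Mylk3 encodes the cardiac myosin light chain kinase, which phosphorylates the regulatory light chain on the myosin neck. It read 11.91, 11.53, 11.93, 11.32 and 11.20 in banding and 12.46, 12.60, 12.41 and 12.45 in sham. All banding arrays lay below all sham arrays, and they were spread more widely (SD 0.33, n = 5) than the sham arrays (SD 0.085, n = 4). The fall was 1.87-fold (log2 -0.90 ± 0.17, limma adjusted p = 0.00366), and it was the largest among the members by their brightest probe set. The changes of Mylk3 and Mybpc3 were unequal (-1.24 between them, exact permutation p = 0.00794, adjusted p = 0.0476), as were those of Mybpc3 and the brightest Ttn probe set (0.35, exact permutation p = 0.0238, adjusted p = 0.0476). In the first pair the genes moved in opposite directions without overlap between the groups, so the arrays of that pair had to separate. Its small p therefore adds nothing to the calls of Mylk3 and Mybpc3 themselves. Leaving out an array leaves fewer splits, which raises the smallest p that can be reached. A loss alone therefore cannot show that a single array carried a result. With single arrays left out, both pairs passed only without sham replicate 2, with adjusted p of 0.0357 to 0.0857 for the first and 0.0357 to 0.114 for the second. The second gave 0.107, 0.0714 and 0.107 without sham replicate 1, 3 or 4, where as many splits were left as without sham replicate 2. The second also did not pass with the brightest Ttn probe set of the plain _at type (0.32, adjusted p = 0.214).

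At the Z-disc the 3 genes differed. Actn2 encodes sarcomeric alpha-actinin, which cross-links thin filaments. It read 13.70, 13.51, 13.49, 13.62 and 13.62 in banding and 13.62, 13.64, 13.66 and 13.69 in sham. The groups overlapped, and the difference of -0.063 ± 0.045 did not pass (limma adjusted p = 0.366; 95% interval -0.17 to 0.043).

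Ldb3 encodes cypher, also known as ZASP, a PDZ and LIM domain protein that links alpha-actinin to protein kinase C. Its brightest probe set, 1433783_at, read 13.09, 13.02, 13.14, 13.29 and 13.13 in banding and 13.16, 13.14, 12.98 and 13.19 in sham, a difference of 0.017 ± 0.064 (limma adjusted p = 1 over all probe sets). A second probe set, 1416752_at, read 12.89, 12.48, 12.54, 12.33 and 12.25 in banding and 13.73, 13.61, 13.71 and 13.56 in sham. The first overlapped throughout, whereas on the second all banding arrays lay below all sham arrays. The second fell 2.23-fold (log2 -1.15 ± 0.13, limma adjusted p = 0.000522). The third, 1451999_at, averaged 8.93 ± 0.40 (SD, n = 5) after banding and 9.03 ± 0.054 (SD, n = 4) after sham surgery and did not pass (limma adjusted p = 0.868). Which of 1433783_at and 1416752_at was the brighter depended on the group, with means of 13.13 and 12.50 in banding and 13.12 and 13.65 in sham. The choice of 1433783_at as the brightest over all arrays therefore rests on the fall of 1416752_at.

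The Ldb3 probe set that fell differed from the brightest by -1.17 in its change (exact permutation p = 0.00794, adjusted p = 0.0159), and the third by -0.12 (p = 0.476, adjusted p = 0.595). The labelled accessions of the 3 probe sets differ, and the gene is known for short and long splice forms, but which form each probe set reads is not given in the probe table. With the mean of the 3, Ldb3 as a gene was lower (-0.41, limma adjusted p = 0.00474, in a range of 0.00474 to 1 over the alternatives). The changes of Actn2 and the brightest Ldb3 probe set were not shown to be unequal (-0.080, exact permutation p = 0.278, adjusted p = 0.317), and with the mean of the Ldb3 probe sets the sign turned (0.35, adjusted p = 0.0119).

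Nebl encodes nebulette, a short relative of nebulin at the Z-disc end of the thin filament, and a LIM-domain form made from the same gene. All 3 of its probe sets fell. The brightest, 1438452_at, read 12.75, 12.37, 12.69, 12.39 and 12.50 in banding and 13.13, 13.33, 13.08 and 13.09 in sham, a fall of 1.53-fold (log2 -0.62 ± 0.099, limma adjusted p = 0.0018 over all genes). At 1439897_at the values were 5.94, 6.02, 6.10, 6.07 and 6.03 in banding and 7.10, 7.56, 7.34 and 7.16 in sham. The groups stood well apart on both, and the second fell 2.39-fold (log2 -1.26 ± 0.095, limma adjusted p = 0.000126 over all probe sets).

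The third Nebl probe set, 1451846_at, ran from 7.75 to 8.43 in banding and from 8.80 to 9.25 in sham, a 1.60-fold fall (log2 -0.68 ± 0.17, limma adjusted p = 0.0212). Without sham replicate 2 it did not pass (log2 -0.57, adjusted p = 0.0546), in a range of 0.00473 to 0.192 over the alternatives. Its change did not differ detectably from that of the brightest (-0.058, exact permutation p = 0.706, adjusted p = 0.785), whereas that of 1439897_at was larger (-0.64, exact permutation p = 0.00794, adjusted p = 0.0159). Nebl and Actn2, neighbours at the Z-disc, changed unequally (-0.55, exact permutation p = 0.0159, adjusted p = 0.0476). With single arrays left out, this pair passed only without sham replicate 2, and its adjusted p lay between 0.0357 and 0.0857. Fewer splits are left then, so the smallest p that can be reached is larger. A loss alone therefore cannot show that a single array carried the result.

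**Figure D3:**
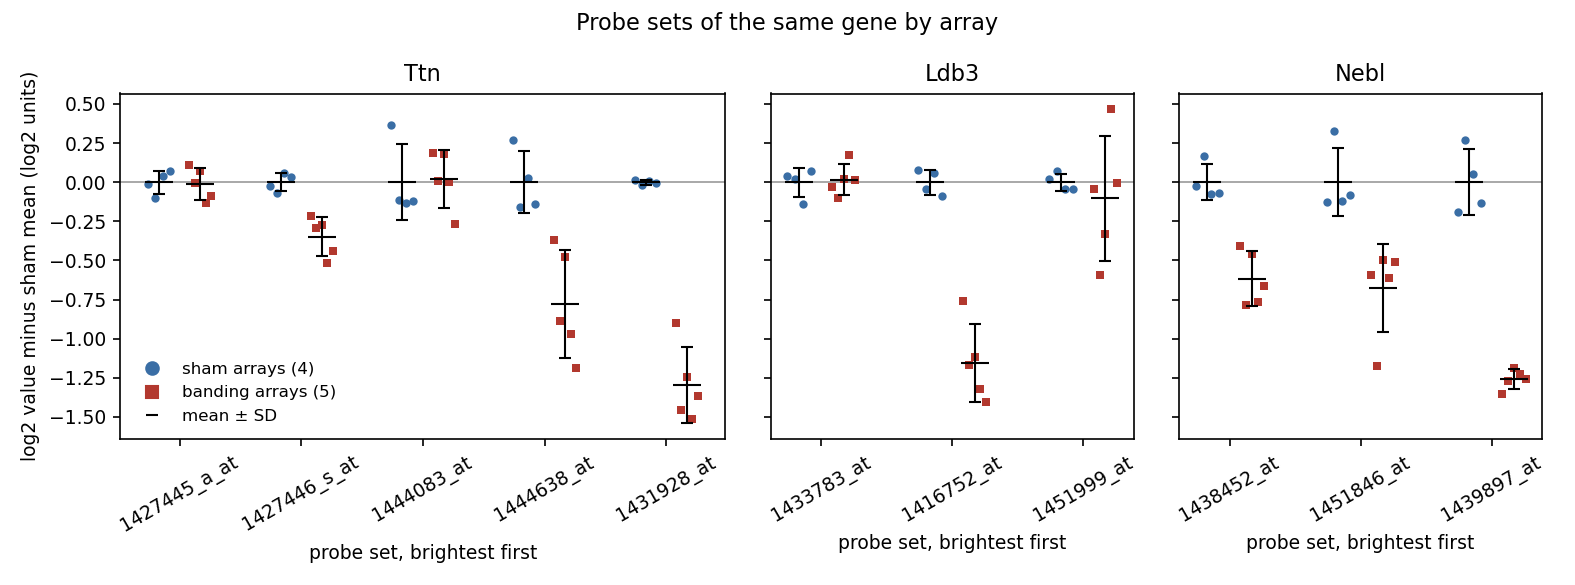
Log2 value on each array less the sham mean (y axis, log2 units) for the probe sets of Ttn, Ldb3 and Nebl above the dim level (x axis, brightest first), with sham arrays as blue circles, banding arrays as red squares and black bars for the mean ± SD. In Ttn and Ldb3 the brightest probe set overlaps between the groups while 1431928_at and 1416752_at lie wholly below sham, and in Nebl all 3 lie below sham.

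The banding arrays kept a partly shared order over the member probe sets. Among the 18 member probe sets above the dim level, banding replicate 1 was the highest banding array in 12 and the lowest in 1. Several of the 18 read the same gene, so they do not count separately. The same count was not made over all probe sets, so this order is not shown to be particular to the members. In the 8 probe sets that were called lower, banding replicate 1 was the highest in 5 and banding replicate 3 in 3, and replicates 2, 4 and 5 were never the highest. The same 2 arrays held the highest cardiomyocyte marker means among the banding arrays, 15.02 and 14.94, against 14.84, 14.78 and 14.80 on replicates 2, 4 and 5. Banding replicate 1 also held the highest atrial marker mean, 11.24. Among the sham arrays sham replicate 2 was the highest in 8 of the 18, with a cardiomyocyte marker mean of 15.15. The sham marker means, from 15.12 to 15.16, lay too close together to set an order beside. What set the order of the arrays was not tested. Sham replicate 3, with the highest marker mean (15.16), was the highest in 3, sham replicate 4 (15.15) in 3 and sham replicate 1 (15.12) in 4.

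For 8 of the 9 genes the RefSeq promoter table (GRCm38.p6) held 13 start sites, and none for Myom2. The 250 bases before the start are shown for 4 members, chosen with their values known: Mybpc3, which rose; Mylk3 and Nebl, which fell; and Ttn. Capitals mark matches to the MEF2 site, the SRF CArG box, GATAA or CATTCC on either strand. MEF2, SRF and GATA proteins and TEAD proteins (whose core site is CATTCC) are known regulators of muscle genes.
Mybpc3, chr2:91117894-91118143, plus strand: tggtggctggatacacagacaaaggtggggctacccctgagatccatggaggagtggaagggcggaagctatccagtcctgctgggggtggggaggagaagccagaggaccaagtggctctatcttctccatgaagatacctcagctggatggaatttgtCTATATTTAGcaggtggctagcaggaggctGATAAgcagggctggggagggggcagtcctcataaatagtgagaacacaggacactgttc
Mylk3, chr8:85381042-85381291, minus strand: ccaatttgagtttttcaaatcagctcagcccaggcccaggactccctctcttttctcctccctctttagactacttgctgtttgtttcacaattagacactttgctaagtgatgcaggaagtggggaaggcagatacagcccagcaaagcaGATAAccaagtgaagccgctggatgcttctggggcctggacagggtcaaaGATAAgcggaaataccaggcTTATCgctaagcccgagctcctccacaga
Nebl, chr2:17670166-17670415, minus strand: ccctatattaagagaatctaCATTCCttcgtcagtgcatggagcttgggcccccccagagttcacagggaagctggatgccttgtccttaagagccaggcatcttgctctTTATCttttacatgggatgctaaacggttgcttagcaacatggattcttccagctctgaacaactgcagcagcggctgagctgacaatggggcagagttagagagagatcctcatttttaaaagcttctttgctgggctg
Ttn, chr2:76982548-76982797, minus strand: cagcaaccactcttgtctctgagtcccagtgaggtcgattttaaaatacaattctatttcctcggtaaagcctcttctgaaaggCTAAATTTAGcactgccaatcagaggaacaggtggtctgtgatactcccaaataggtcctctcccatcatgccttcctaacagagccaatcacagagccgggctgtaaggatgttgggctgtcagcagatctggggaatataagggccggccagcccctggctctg
The Mybpc3 window held a MEF2 match 90 bases before the start and GATAA 60 bases before it, and the Ttn window a MEF2 match 166 bases before the start. A MEF2 match was also found in the Myom3 window. Of all 32851 promoter windows of the same length, 2.92% held a MEF2 match. The Mylk3 window shown, the first of 2, held 3 GATAA matches, and GATAA occurred in 22.6% of all windows. The other Mylk3 window held no GATAA but a CATTCC match. GATAA was also matched in the Myom1 window and in a further Nebl window. The Nebl window shown held a CATTCC match, found in 12.6% of all windows, and a GATAA match. A CArG box was matched in both Ldb3 windows (which overlap), in the Myom1 window and in another of the 4 Nebl windows, beside 1.47% of all windows. The E-box CANNTG, not capitalised here, was in 66.2% of all windows and is too common to set any apart. A match is a run of letters only, and whether any protein binds there was not measured.

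Partners and relatives of the members were described from 5 lists, 67 of whose 69 genes were measured. The counts of each list stand beside 38.4% of all genes called, 18.4% upwards and 20.0% downwards. Of genes above the dim level 62.0% were called, and no list was tested against these shares. Dim in both groups, and not called, were 1 titin partner, 3 other Z-disc genes, 2 other thick filament genes and 3 relatives by descent. Among 15 partners of titin, 4 rose, 5 fell and 6 missed the threshold, for a median difference of -0.20. Ankrd1, which encodes the titin-binding stress protein CARP, rose 2.69-fold (log2 1.43 ± 0.14, limma adjusted p = 0.000186), from 13.37 ± 0.26 (SD, n = 4) to 14.79 ± 0.16 (SD, n = 5). Ankrd23 rose 2.30-fold and Fhl1, a LIM protein at the titin N2B region, 2.27-fold (log2 1.18, or 0.60 averaged over 2 probe sets, 1 of them dim). Cmya5, which encodes myospryn, fell 2.63-fold (log2 -1.39 ± 0.19, limma adjusted p = 0.000837). Tcap, which encodes the telethonin that caps titin at the Z-disc, fell 2.22-fold (log2 -1.15 ± 0.21, limma adjusted p = 0.00367), from 14.26 ± 0.099 (SD, n = 4) to 13.11 ± 0.43 (SD, n = 5), and Trim54 fell 1.56-fold. Csrp3, which encodes muscle LIM protein, did not pass (-0.22 ± 0.088, limma adjusted p = 0.099), although its groups did not overlap.

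Of 20 other Z-disc genes, 5 rose, 5 fell and 10 missed the threshold, and the median difference was -0.021. Synpo2l rose 2.46-fold, Des, which encodes desmin, 2.05-fold (log2 1.03 ± 0.20, limma adjusted p = 0.00395), and Pdlim1, a relative of Ldb3, 1.72-fold (log2 0.79, or 0.26 averaged over its probe sets). With the mean of its 2 probe sets the rise of Des did not pass (adjusted p = 0.107, range 0.000815 to 0.107). Myoz2 fell 1.29-fold, Mypn 1.69-fold and Nexn 1.48-fold. Of 15 other thick filament genes, 2 rose, 6 fell and 7 missed the threshold, for a median of -0.12. Myh7, the slow myosin heavy chain, and Mybpc2, the fast skeletal form of myosin-binding protein C, rose 38.9-fold and 5.79-fold (log2 2.53 ± 0.32 for Mybpc2, limma adjusted p = 0.000614). Myh6, the fast cardiac myosin heavy chain, did not pass (-0.12 ± 0.048, limma adjusted p = 0.0829). Falls were found for Myh7b (at least 3.57-fold, since its banding mean was dim), Ppp1r12b, a subunit of the phosphatase that opposes myosin light chain kinases (1.95-fold, log2 -0.96, or -0.38 averaged over its probe sets), and Unc45b, a myosin chaperone (1.63-fold).

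Among 9 relatives of the members by descent, 5 rose, 1 fell and 3 missed the threshold, for a median of 0.73. The 3 that missed were dim in both groups, so every relative above the dim level was called. Non-muscle alpha-actinins rose, Actn1 5.54-fold (log2 2.47 ± 0.23, limma adjusted p = 0.000161) and Actn4 2.69-fold (log2 1.43 ± 0.14, limma adjusted p = 0.00018). Lasp1, a LIM relative of Nebl, rose 3.99-fold (log2 1.99 ± 0.11, limma adjusted p = 2.52e-05), or by 1.14 on its brightest probe set of the plain _at type. Mylk4, a further myosin light chain kinase gene, fell 18.5-fold (log2 -4.21 ± 0.72, limma adjusted p = 0.00244), with means of 6.91 ± 1.46 (SD, n = 5) after banding and 11.12 ± 0.11 (SD, n = 4) after sham surgery. Markers of fibroblasts, endothelium, macrophages and smooth muscle were higher on the same arrays as Actn1, Actn4 and Lasp1, and their part in these rises was not tested.

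Regulators of muscle splicing were listed because titin and Ldb3 are known splicing targets. Of 10, 3 rose, 4 fell and 3 missed the threshold, for a median of -0.017. Rbm20, the main splicing repressor of titin exons, fell 2.43-fold (log2 -1.28 ± 0.15, limma adjusted p = 0.000458), from 12.02 ± 0.22 (SD, n = 4) to 10.74 ± 0.24 (SD, n = 5). Rbfox1 fell 6.24-fold (log2 -2.64 ± 0.40, limma adjusted p = 0.00138), with falls of like size on its 2 other probe sets above the dim level, and Celf1 1.20-fold. Rises were found for Ptbp1 (2.06-fold), Rbfox2 (1.57-fold) and Celf2 (1.46-fold), but these 3 depended on the probe set. With the brightest probe set of the plain _at type, leaving out those with the suffix _a_at (several transcripts of 1 gene), _s_at or _x_at (which can read other genes), Ptbp1 was lower (-0.66, adjusted p = 0.0175, range 7.73e-06 to 0.112), Celf2 was -0.75 (adjusted p = 0.0596, range 0.000233 to 0.222) and Rbfox2 did not pass (0.22, adjusted p = 0.525, range 3.86e-05 to 0.525). For Ptbp1 and Celf2 the low end of each range belongs to a rise, and only the plain _at choice gave a negative difference. With the mean of its probe sets Celf1 did not pass (-0.025, adjusted p = 0.895, range 0.000907 to 0.944).

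**Figure D4:**
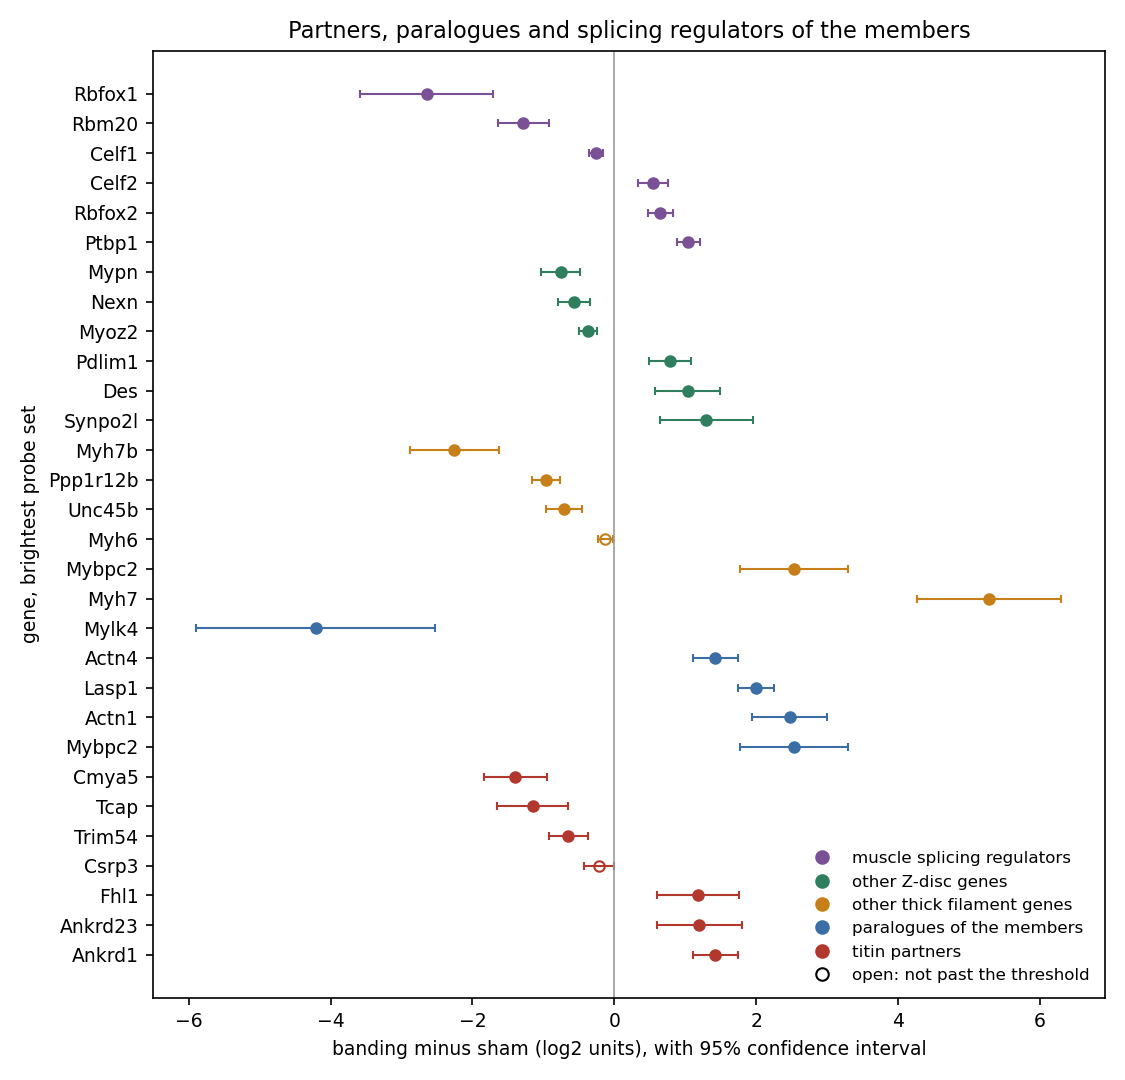
Banding minus sham (x axis, log2 units) with 95% confidence intervals for 29 named partners, relatives and splicing regulators (y axis), coloured by list; Mybpc2 stands in 2 lists, and open points did not pass. Rbm20, Tcap and Mylk4 lie below 0, and Myh7, Actn1 and Lasp1 above it.

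The genes whose profile was most like that of a member were found by the root mean square difference over the 9 arrays between the genes' log2 values, each less its own mean, among 11012 other genes above the dim level. For Mybpc3, the member with the largest rise, they were Dusp3 (0.053 log2 units), Atpif1 (0.055), Rragc (0.057), Fam216a (0.059) and Atp9a (0.059). For Mylk3, which fell most by its brightest probe set, they were Dhrs7 (0.078), Etfa (0.082), Tmem170b (0.085), Txlnb (0.087) and Dip2c (0.089). All 10 passed the threshold in the same direction as the member, which the search itself favours.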

How the data were processed

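The table the authors deposited gives a log2 value for each probe set on each array. RMA and GCRMA, which correct background and normalise arrays, are named in the submitters' processing notes, with no version, role or order, and the log2 scale was read from the values, which run from 2.198 to 16.43. The arrays had medians of 3.23 to 3.31, and precision rests on how many there are. No value was changed in the main analysis.

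Probe sets were named from the platform's annotation table. Of 45101, 64 controls were left out, and for genes also 9160 naming no gene and 932 naming several. Each of the 18193 genes was taken by its probe set with the highest mean over the 9 arrays. The 5 banding and 4 sham arrays were fitted with limma 3.58.1 in R 4.3.3 (lmFit, eBayes, two-sided, no covariates, no filter, threshold 0.05), separately over 18193 genes and 45037 probe sets. The fit was tested on simulated data. Unequal changes and 11 array measures were compared by exact permutation with adjustment within each family. Promoter motifs were searched in RefSeq sequence. Figures used Python 3.11.15 and matplotlib 3.10.9.

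The members, lists and tests were chosen with earlier results of these data known. Named genes were all members; the 3 smallest p in each direction of each list; Rbm20, Tcap, Csrp3, Myh6, Myh7, Actn1 and Actn4; and the 5 profiles nearest to the largest rise and fall. Alternatives were other probe set choices, scalings, a dim filter, a floor, a variance trend, the replicate number as a block, and left-out arrays.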

Additional observations from a re-analysis of the deposited data

Results flagged for a closer look

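A sample stood far from the others of its group in 15 of the groups compared, out of 120 groups of 4 or 5 arrays tested. A rate of about 1 in 20 by chance does not allow for shared arrays and genes or for tied values at dim probe sets. Whether 15 is more than chance gives was therefore not shown.

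Among Ttn probe sets, 1444083_at read 11.51 on sham replicate 1, against 11.01 to 11.03 on the other sham arrays. At the dim 1446450_at, sham replicate 3 read 2.525 and banding replicate 2 read 2.24, against 2.27 on the other arrays. Myom1 read 13.50 on sham replicate 1, against 13.58 on the other sham arrays. The dim Myom3 read 3.88 on banding replicate 4 (others 3.55) and 3.42 on sham replicate 1 (others 3.55). Nebl 1451846_at read 7.75 on banding replicate 2 (others 8.32 to 8.43) and 9.25 on sham replicate 2 (others 8.80 to 8.85).

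Among partners, Myh7b read 6.31 on sham replicate 3 (others 5.92 to 5.98), Myoz2 14.79 on banding replicate 1 (others 14.55 to 14.62), Nexn 12.01 on banding replicate 4 (others 12.32 to 12.43) and Trim54 10.91 on banding replicate 1 (others 10.66 to 10.73). Of the marker means, endothelium read 9.24 on banding replicate 5 (others 9.63 to 9.75), skeletal muscle 5.89 on sham replicate 4 (others 3.06 to 3.40) and liver 5.29 on banding replicate 5 (others 2.92 to 3.13).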

How the results depend on the processing

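The 3 gene calls kept their direction under every alternative run. Mybpc3 ran from 0.30 to 0.61, Nebl from -0.85 to -0.35 and Mylk3 from -0.99 to -0.64, and all 3 passed over genes except Mybpc3 with the replicate block. With arrays centred on the cardiomyocyte markers, every difference rises by 0.27 by construction, floor values included. The counts were then 14098 genes (11585 higher and 2513 lower), 36051 probe sets (31699 higher and 4352 lower), 9 member genes and 19 member probe sets, and the differences of Ttn, Actn2, Ttn 1446450_at and Ldb3 1451999_at became 0.26, 0.21, 0.20 and 0.17, and those of Celf1, Csrp3 and Myh6 0.0055, 0.053 and 0.14. Relative to that shift no order changes. With the mean of all probe sets 5 member genes passed (1 higher and 4 lower), beside 7043 of all 18193 genes, Ldb3 became -0.41 and Actn2 less Ldb3 0.35.

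With the replicate block, 5277 genes, 7320 probe sets, 2 member genes and 4 member probe sets passed, Mybpc3 was 0.32 (adjusted p = 0.0518), and Ttn and Myom1 became 0.011 and -0.0067. Ankrd23, Fhl1 and Synpo2l missed the threshold too (adjusted p = 0.0854, 0.0511 and 0.0506), as did, over probe sets, Mybpc3, Mylk3, Ttn 1427446_s_at and Nebl 1438452_at and 1451846_at (adjusted p = 0.0617 to 0.192). Same-numbered arrays deviated together at correlations of only -0.029 to 0.036 over the genes above the dim level. That shows no pairing across genes as a whole but cannot exclude one that touches some genes. Banding replicate 5, which has no partner, carries no weight in that fit. Differences close to 0 also turned sign: Ttn became 0.034 with quantile normalization, 0.022 with plain _at probe sets only (1444083_at) and 0.035 without sham replicate 4 and banding replicate 5 together. With arrays centred on their medians Myom1 became -0.028, Ldb3 -0.013 and Ttn 1444083_at -0.0076. With plain _at probe sets only, Ptbp1 became -0.66 and Celf2 -0.75, and Mybpc3 less Ttn was 0.32 and no longer passed.

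With single arrays left out, Ttn ran from -0.042 to 0.022, Ttn 1444083_at from -0.022 to 0.14, Myom1 from -0.022 to 0.039, Ldb3 from -0.029 to 0.046 and Ldb3 1451999_at from -0.25 to 0.021. Mybpc3 less Ttn ran from 0.31 to 0.40, Nebl less Actn2 from -0.62 to -0.49, Mylk3 less Mybpc3 from -1.36 to -1.13, Myom1 less Myom2 from -0.23 to -0.15, Myom1 less Myom3 from -0.14 to -0.042 and Actn2 less Ldb3 from -0.12 to -0.030. The 3 called pairs then passed only without sham replicate 2 (adjusted p of 0.0357 to 0.114). Fewer splits of the arrays are left then, but this does not account for every loss. Without sham replicate 1, 3 or 4, Mybpc3 less Ttn gave adjusted p of 0.107, 0.0714 and 0.107. As many splits allowed 0.0357 without sham replicate 2. Without sham replicate 4 and banding replicate 5, Mybpc3 less Ttn, Nebl less Actn2 and Mylk3 less Mybpc3 were 0.27, -0.57 and -1.12 and did not pass. Values near the floor of 2.198, held by 31.5% of readings, limit what can be seen of Myom3.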
